A study of Sus scrofa with 4 samples.

Results

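The piRNA pathway genes described here were 10 listed genes: PIWIL1, PIWIL2, PIWIL4, TDRD1, TDRD9, MAEL, DDX4, TEX15, HENMT1 and MOV10L1. All 10 were found by gene symbol among the 26921 genes of the deposited tables, and all 10 passed the filter on low counts. Pig testicular cells in culture, labelled as immature spermatogonia, were profiled by RNA sequencing in 2 groups of 2 libraries. The first group carried a knockdown of ZBTB16, a zinc finger transcription factor known for its role in spermatogonial self-renewal. The second group was the control, labelled wild type. The study's plan describes lentiviral delivery of an shRNA into primary cells, and the labels do not say which vector, if any, the control cells received, so an effect of the virus and an effect of the knockdown cannot be told apart. Animal age, sex and number are not given per library.

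piRNAs are small RNAs bound by PIWI proteins, a branch of the Argonaute family that is largely restricted to the germ line. They silence transposable elements by cutting their transcripts in the cytoplasm and, in fetal mouse germ cells, by directing DNA methylation to their promoters in the nucleus. Around the PIWI proteins stand RNA helicases that feed and unwind RNA, Tudor domain proteins that hold the germ granule together by binding methylated arginines of PIWI proteins, and a methyltransferase that protects the 3′ end of the piRNA. In the mouse testis the pathway is known for its part in male fertility, and loss of most of its components stops sperm formation.

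Library depth was 18500447 and 16548342 expected counts in the knockdown libraries, against 17283536 and 15983390 in the control libraries. ZBTB16, on chromosome 9 from 41639536 to 41839254, had 1.37 and 1.34 FPKM (RNA fragments scaled for library size and for the length of the transcript) in knockdown cells, against 1.77 and 1.76 FPKM in control cells. It fell by 0.36 on the log2 scale (SE 0.109, edgeR quasi-likelihood adjusted p = 0.00338), to 0.779 times the control level, but it did not pass with DESeq2 (adjusted p = 0.083) or with limma on log2(FPKM + 1) (adjusted p = 0.0685) or log2(TPM + 1) (-0.11, adjusted p = 0.338). The labelled cell type was set against marker genes. 7 of the 13 spermatogonial markers present reached 1 FPKM in at least 2 libraries, while GFRA1 stayed between 0.57 and 0.70 FPKM and NANOS2 between 0 and 0.27 FPKM. The smooth muscle actin gene ACTA2, a marker of peritubular cells, had 3508 and 3440 FPKM in knockdown cells and 3209 and 3198 FPKM in control cells. Markers of somatic testis cells were not all high. The Sertoli cell marker CLDN11 ran from 571 to 721 FPKM, and FATE1, another of that list, from 0.16 to 0.89 FPKM. The marker lists did not shift as units, and in several a single gene carried much of the gap in the sum. Summed spermatogonial markers were 138 to 140 FPKM in knockdown cells and 172 to 173 FPKM in control cells, but without UCHL1 they were 51.0 and 52.5 FPKM in knockdown cells and 51.3 and 51.4 FPKM in control cells. Of the 13, 5 were higher in both knockdown libraries than in both controls (SALL4, GFRA1, ID4, FGFR3 and DAZL). The 4 lower ones were UCHL1, DND1, TEX101 and ZBTB16, the knockdown target. Among all tested genes 29.0% were higher and 41.4% lower in this way, and the marker counts stand beside these shares. Summed Sertoli cell markers were 835 to 860 FPKM in knockdown cells and 681 to 692 FPKM in control cells, and 144 and 140 FPKM in knockdown cells and 105 and 109 FPKM in control cells without CLDN11. 4 of these 8 were higher and 3, AMH, DHH and FATE1, lower. Summed peritubular markers were 5127 to 5230 FPKM in knockdown cells and 5304 to 5389 FPKM in control cells, where TAGLN was lower while ACTA2, MYH11 and DES were higher. Without TAGLN that sum was 3788 and 3708 FPKM in knockdown cells and 3470 and 3458 FPKM in control cells. Macrophage markers summed to 10.3 to 13.7 FPKM in knockdown cells and 17.0 to 20.1 FPKM in control cells, and overlapped without AIF1 (7.82 and 10.39 FPKM in knockdown cells, 9.39 and 10.04 FPKM in control cells). Leydig cell markers summed to 170 to 181 FPKM in knockdown cells and 204 to 207 FPKM in control cells, with 1 of 6 higher and 3 lower. CYP11A1 alone had 144 and 150 FPKM in knockdown cells and 162 and 158 FPKM in control cells. STAR, CYP17A1 and LHCGR stayed between 0.07 and 0.78 FPKM. Endothelial markers summed to 9.43 to 10.3 FPKM in knockdown cells and 10.1 to 11.7 FPKM in control cells. Markers of differentiating spermatogonia summed to 12.3 to 12.9 FPKM in knockdown cells and 12.6 to 12.9 FPKM in control cells, those of spermatocytes to 16.7 to 17.5 FPKM in knockdown cells and 17.5 to 17.9 FPKM in control cells, and those of spermatids to 1.3 to 2.13 FPKM in knockdown cells and 1.61 to 1.95 FPKM in control cells. The spermatid genes ACRV1, PRM1 and TNP1 were at 0 in all 4 libraries. In bulk RNA, fewer cells of a type and less RNA per cell cannot be told apart, and the part of cell makeup in the values below was not tested.

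Of the 10 members, 2 rose in ZBTB16 knockdown cells (PIWIL2 and TEX15), 1 fell (PIWIL4) and 7 did not pass the test, which was edgeR's quasi-likelihood test with Benjamini-Hochberg adjustment and a threshold of 0.05. The background was high. Of 15763 tested genes 46.4% were called, 22.7% as higher and 23.8% as lower in knockdown cells, so 3 called of 10 is no more than the share among all genes. The median log2 fold change of the members was -0.102, against -0.001 for all tested genes. Both libraries of a group were described as separate experiments, and p-values set the difference between groups against the spread within each group. Whether that spread includes variation between animals is not known, as their number is not given per library. The spread within groups was close to counting noise. Tested over genes, the ratio of chi-square to its degrees of freedom was 1.26 between the knockdown libraries and 1.15 between the controls, against 25.1 to 27.1 between groups, and edgeR's common biological coefficient of variation was 0.0129. Called changes were modest, and no member reached 1.5-fold in either direction with a pass.

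The genes lie apart on build Sscrofa11.1. PIWIL1 (24729346 to 24760056, minus strand), PIWIL2 (6560402 to 6632524, plus strand) and TDRD1 (124526013 to 124575166, plus strand) are on chromosome 14, and MAEL (83990266 to 84040465, minus strand) and HENMT1 (111364456 to 111382582, plus strand) are on chromosome 4. PIWIL4 is on chromosome 9 (26679960 to 26751856, plus strand), as ZBTB16 is. TEX15 is on chromosome 15 (54210139 to 54277609, plus strand), DDX4 on chromosome 16 (34879701 to 34983701, plus strand) and MOV10L1 on chromosome 5 (509868 to 567429, minus strand). TDRD9 is on a scaffold with no chromosome. All 10 are protein-coding, with 9 exons in HENMT1 and up to 37 in TDRD9.

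**Figure D1:**
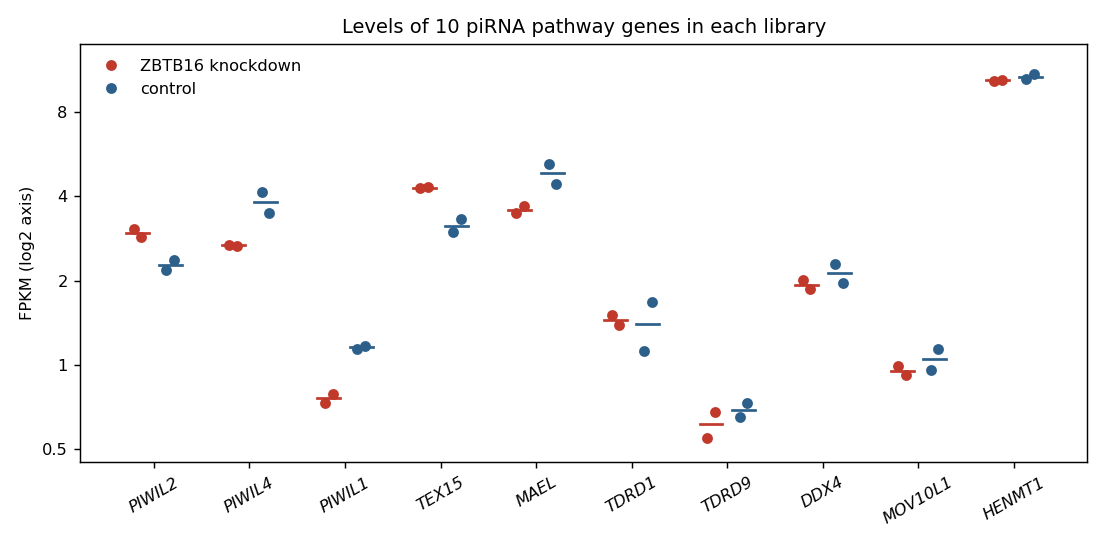
Each point is the FPKM of a gene in a library, on a log2 axis, with ZBTB16 knockdown libraries in red left of control libraries in blue and a line at each group's mean. PIWIL2 and TEX15 sit higher in both knockdown libraries than in both controls, PIWIL4, PIWIL1, MAEL and HENMT1 sit lower, and TDRD1, TDRD9, DDX4 and MOV10L1 overlap.

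Among the PIWI genes, PIWIL2 rose and PIWIL4 fell. PIWIL2, whose mouse counterpart MILI binds piRNAs in the cytoplasm of fetal and postnatal male germ cells and cuts transposon transcripts, had 3.07 and 2.86 FPKM in knockdown cells, against 2.18 and 2.38 FPKM in control cells. Both knockdown libraries stood above both controls. In counts PIWIL2 had 305 and 254 in knockdown cells and 200 and 202 in control cells, a 1.34-fold rise (95% interval 1.17 to 1.53, log2 0.42, SE 0.099, edgeR adjusted p = 0.000158).

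PIWIL4, whose mouse counterpart MIWI2 enters the nucleus of fetal germ cells with its piRNAs and directs DNA methylation of transposons, went the other way. It had 2.69 and 2.67 FPKM in knockdown cells, against 4.13 and 3.48 FPKM in control cells. The knockdown pair was nearly equal and lay below both controls, which differed from each other more than the knockdown pair did. Its counts were 136 and 116 in knockdown cells and 191 and 149 in control cells, and it fell to 0.713 times the control level (95% interval 0.599 to 0.848, log2 -0.49, SE 0.127, edgeR adjusted p = 0.000573). Without control replicate 1, its highest library, the difference was -0.36 on the log2 scale and no longer passed (edgeR adjusted p = 0.0622). PIWIL4 shares 162 exon bases with FUT4 on the same strand, and FUT4 had 178 and 153 counts in knockdown cells and 172 and 153 in control cells, so counting could have split reads from the shared bases between the genes.

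PIWIL1, the counterpart of mouse MIWI, which acts in meiotic and later male germ cells, was low. It had 0.73 and 0.79 FPKM in knockdown cells and 1.14 and 1.17 FPKM in control cells, from 40 and 38 counts in knockdown cells and 56 and 51 in control cells. The groups did not overlap, and the log2 difference of -0.51 (95% interval -0.96 to -0.06) was as large as that of PIWIL4. Its error was wider (SE 0.227), and it missed the threshold (edgeR adjusted p = 0.0537). It passed narrowly with no low-count filter (-0.52, edgeR adjusted p = 0.0474) and with the length corrections described further on. It did not pass with DESeq2 (-0.51, adjusted p = 0.281) or with limma on log2(TPM + 1) (-0.21, adjusted p = 0.158).

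PIWIL2 and PIWIL4 exchanged order between the groups, and PIWIL1 was the lowest of the 3 in every library. The FPKM ratio of PIWIL4 to PIWIL2 was 0.876 and 0.934 in knockdown libraries, against 1.89 and 1.46 in control libraries. PIWIL4 was the more abundant of the pair in both controls and PIWIL2 in both knockdown libraries. The ratio of PIWIL1 to PIWIL2 was 0.238 and 0.276 in knockdown libraries and 0.523 and 0.492 in control libraries. These ratios do not depend on how a library was scaled, although with 2 libraries against 2 an exact permutation test cannot go below p = 0.333. The genes differ in length, and the ratios were not corrected for the trend of fold change on transcript length described further on. With that trend removed, PIWIL2 was at 0.30 and PIWIL4 at -0.50 on the log2 scale. The 3 PIWI genes summed to 6.49 and 6.32 FPKM in knockdown cells and 7.45 and 7.03 FPKM in control cells, but in TPM (a relative transcript abundance whose total is equal between libraries) to 10.2 and 9.97 in knockdown cells and 10.1 and 9.46 in control cells, so the direction of the sum depended on the unit.

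The start regions of these genes differed in base composition. Shown here, on the strand of the gene and 5′ to 3′, are the 250 bases before and 50 bases after the annotated start of the 3 PIWI genes, read from the RefSeq genome of build Sscrofa11.1, because PIWIL2 stood higher and PIWIL4 and PIWIL1 lower in knockdown cells. Capitals mark matches, on either strand, to CACGTG (the E-box letters bound by MYC and MAX family factors) or AACNGT (the MYB letters). TTCCCGC (E2F) and TATAAA (the TATA box) were searched too and matched none of the windows shown. The motifs were picked after the expression values were seen, and overlapping matches of a motif were merged into a stretch.
PIWIL2, chr14:6560152-6560451, plus strand: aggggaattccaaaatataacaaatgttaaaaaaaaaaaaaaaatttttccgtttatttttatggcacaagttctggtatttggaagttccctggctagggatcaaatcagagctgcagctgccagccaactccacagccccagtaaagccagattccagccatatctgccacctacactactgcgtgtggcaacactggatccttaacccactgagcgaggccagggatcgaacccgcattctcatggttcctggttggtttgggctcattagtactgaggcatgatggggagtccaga
PIWIL4, chr9:26679710-26680009, plus strand: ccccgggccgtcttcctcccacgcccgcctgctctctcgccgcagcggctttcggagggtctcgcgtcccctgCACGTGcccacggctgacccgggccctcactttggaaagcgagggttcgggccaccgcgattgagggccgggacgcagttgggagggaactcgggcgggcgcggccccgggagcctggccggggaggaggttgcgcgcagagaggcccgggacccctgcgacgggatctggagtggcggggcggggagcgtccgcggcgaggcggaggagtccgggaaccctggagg
PIWIL1, chr14:24760007-24760306, minus strand: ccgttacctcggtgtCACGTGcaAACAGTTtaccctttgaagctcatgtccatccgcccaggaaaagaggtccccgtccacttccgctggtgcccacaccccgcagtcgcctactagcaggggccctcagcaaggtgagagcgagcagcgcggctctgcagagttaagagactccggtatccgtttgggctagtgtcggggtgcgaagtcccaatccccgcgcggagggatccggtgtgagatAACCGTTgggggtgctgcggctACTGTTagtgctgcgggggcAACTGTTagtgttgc

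The PIWIL4 window was 75.3% G or C with 38 CpG dinucleotides, and the PIWIL2 window was 46.3% G or C with 5, against a median of 61.7% and 21 CpGs over 14237 windows of tested genes. The genome's repeat masking covered 69.0% of the PIWIL2 window and 0% of the other 2, where 6.18% of all windows were masked over more than 50% of their length. Members that did not pass had such windows too. MOV10L1 was 76.7% G or C with 42 CpGs and TDRD9 74.0% with 41, while TDRD1 was 31.7% with 2. Masking covered 94.0% of the DDX4 window. The PIWIL1 window held 4 stretches of the MYB letters, at -227, -7, 15 and 35 counted from the annotated start, and only 7 of the 14237 windows (0.0492%) held as many. PIWIL1 and PIWIL4 each held 1 CACGTG. Of all windows 18.3% held the MYB letters, 9.28% CACGTG, 8.54% the E2F letters and 8.04% the TATA box letters. A match is a description of the letters and not a binding site, and a window without a match says only that these letters are not in it.

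TEX15, known in mouse as a nuclear partner of MIWI2 needed for transposon methylation in fetal germ cells, gave the smallest p of the members. It had 4.28 and 4.31 FPKM in knockdown cells, against 2.98 and 3.31 FPKM in control cells. Both knockdown libraries stood above both controls and were nearly equal. With 937 and 845 counts in knockdown cells and 607 and 623 in control cells, it had the most counts of the members and rose 1.39-fold (95% interval 1.29 to 1.51, log2 0.48, SE 0.0571, edgeR adjusted p = 3.58e-13). So TEX15 rose while PIWIL4, its partner in the mouse, fell: the FPKM ratio of TEX15 to PIWIL4 was 1.59 and 1.61 in knockdown libraries and 0.722 and 0.951 in control libraries. These genes also differ in length, and this ratio was not corrected for the length trend either. The start region of TEX15, shown to set beside that of PIWIL4, was 50.7% G or C with 13 CpGs and held none of the 4 motifs.
TEX15, chr15:54209889-54210188, plus strand: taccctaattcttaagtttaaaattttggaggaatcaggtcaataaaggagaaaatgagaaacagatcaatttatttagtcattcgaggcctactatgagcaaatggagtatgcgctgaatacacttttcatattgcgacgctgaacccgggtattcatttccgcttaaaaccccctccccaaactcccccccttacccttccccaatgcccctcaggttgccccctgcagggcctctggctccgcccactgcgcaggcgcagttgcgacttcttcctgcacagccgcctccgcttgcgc

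MAEL, a germ granule protein with an HMG box that is needed for transposon silencing in mouse and fly, had 3.49 and 3.68 FPKM in knockdown cells and 5.24 and 4.42 FPKM in control cells. The knockdown libraries lay below both controls. The counts, 88 and 83 in knockdown cells and 118 and 92 in control cells, gave a log2 difference of -0.35 (95% interval -0.66 to -0.04) that did not pass (edgeR adjusted p = 0.0555). MAEL sat close to the threshold in that fit, but not with DESeq2 (-0.35, adjusted p = 0.296). With limma it passed on log2(FPKM + 1) (-0.34, adjusted p = 0.0307) but not on log2(TPM + 1) (-0.17, adjusted p = 0.185). It was -0.47 without control replicate 2 and -0.22 without control replicate 1.

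Neither Tudor domain member passed the test. TDRD1, a partner of MILI in the granules between mitochondria of mouse germ cells, had 1.51 and 1.39 FPKM in knockdown cells and 1.12 and 1.68 FPKM in control cells. Its control libraries bracketed the knockdown ones (log2 0.16, 95% interval -0.09 to 0.41, edgeR adjusted p = 0.321), and which control was kept decided the value: -0.07 without control replicate 1, and 0.40 with a call without control replicate 2 (edgeR adjusted p = 0.0291). TDRD9, a helicase with a Tudor domain that works with MIWI2 in mouse, was the lowest member, with 0.55 and 0.68 FPKM in knockdown cells and 0.65 and 0.73 FPKM in control cells. Its 49 and 54 counts in knockdown cells and 53 and 55 in control cells gave a log2 difference of -0.12 (95% interval -0.54 to 0.29, edgeR adjusted p = 0.67). That interval holds changes of either sign.

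The RNA helicases DDX4 and MOV10L1 did not pass either. DDX4, the VASA helicase that is used as a general germ cell marker, had 2.01 and 1.86 FPKM in knockdown cells and 2.3 and 1.96 FPKM in control cells, and the groups overlapped. Its counts were 78 and 70 in knockdown cells and 83 and 72 in control cells (log2 -0.12, 95% interval -0.47 to 0.22, edgeR adjusted p = 0.601). MOV10L1, the helicase that hands piRNA precursors to the processing machinery in mouse, had 0.99 and 0.92 FPKM in knockdown cells and 0.96 and 1.14 FPKM in control cells. Its log2 difference was -0.08 (95% interval -0.46 to 0.30, edgeR adjusted p = 0.77), from 70 and 58 counts in knockdown cells and 62 and 68 in control cells.

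HENMT1, the methyltransferase that adds a protecting methyl group to the 3′ end of piRNAs, was the most abundant member in all 4 libraries. It had 10.35 and 10.40 FPKM in knockdown cells and 10.46 and 10.96 FPKM in control cells, from 276 and 248 counts in knockdown cells and 250 and 242 in control cells. The interval around its log2 difference of 0.03 ran from -0.15 to 0.22 (edgeR adjusted p = 0.808), the narrowest among the members that did not pass. Its side depended on the unit: in FPKM the knockdown libraries were below both controls, and in TPM they were above, at 16.3 and 16.4 against 14.1 and 14.8 in control cells, and there limma called it (0.17, adjusted p = 0.0337). FPKM summed to 634962 and 632881 in the knockdown libraries and to 739808 and 742383 in the control libraries, whereas TPM has the same sum in every library by construction. The median tested gene had a log2 TPM ratio of 0.165 and a log2 FPKM ratio of -0.051. Relative to the median of the genes in each limma fit, HENMT1 differed by 0.01 in log2(FPKM + 1) and by 0.02 in log2(TPM + 1). Relative to the same medians PIWIL4 stood at -0.33 and -0.38, MAEL at -0.29 and -0.32, PIWIL2 at 0.33 in both fits, and TEX15 at 0.41 and 0.42. So both units gave these 4 genes much the same distance from the typical gene.

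**Figure D2:**
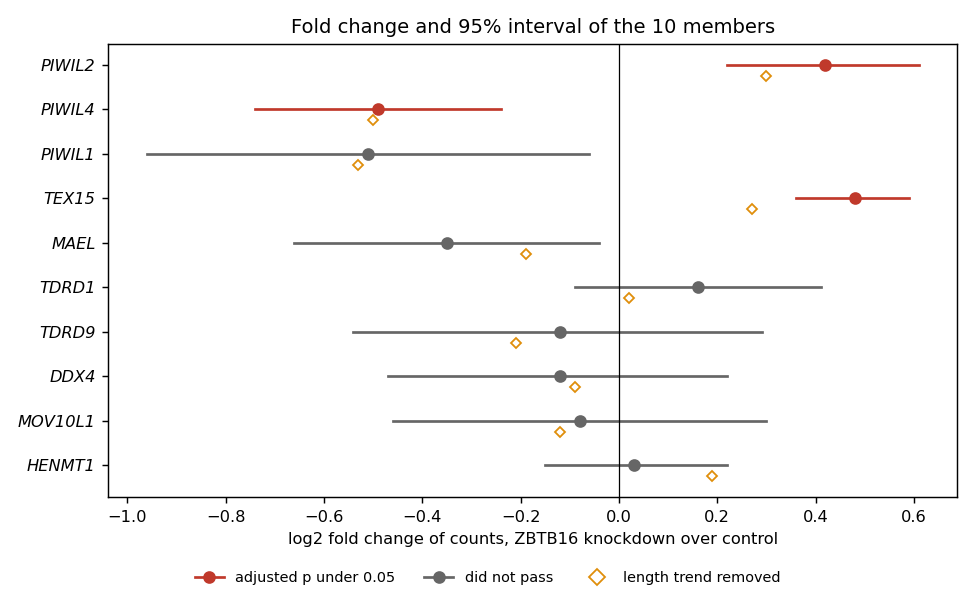
Circles are edgeR log2 fold changes of counts, ZBTB16 knockdown over control, with 95% intervals as lines, and open diamonds are the fold changes after a trend on transcript length was removed. PIWIL2 and TEX15 lie right of 0 and PIWIL4 left of it in both fits, and TEX15 is at 0.48 without the correction and at 0.27 with it.

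By FPKM, 2 members (PIWIL2 and TEX15) were higher in both knockdown libraries than in both controls and 4 (PIWIL1, PIWIL4, MAEL and HENMT1) were lower, where 29.0% and 41.4% of all tested genes were so placed. The order of the levels changed below the top rank. In knockdown cells HENMT1 was followed by TEX15, MAEL, PIWIL2, PIWIL4, DDX4, TDRD1, MOV10L1, PIWIL1 and TDRD9, and the ranges of neighbours did not overlap. In control cells HENMT1 was followed by MAEL, PIWIL4, TEX15, PIWIL2, DDX4, TDRD1, PIWIL1, MOV10L1 and TDRD9. There the ranges of PIWIL2 and DDX4 overlapped, as did those of TDRD1 and PIWIL1 and those of PIWIL1 and MOV10L1. TEX15 had rank 2 in knockdown cells and rank 4 in control cells, and MAEL over TEX15 was 0.815 and 0.854 in knockdown libraries against 1.76 and 1.34 in control libraries. These ranks and ratios were not corrected for the trend of fold change on transcript length described next. With that trend removed, the log2 difference of TEX15 was 0.27 instead of 0.48, and that of MAEL -0.19 instead of -0.35. The 10 members summed to 29.7 and 29.6 FPKM in knockdown cells and 31.2 and 31.2 FPKM in control cells, but to 46.8 and 46.7 TPM in knockdown cells and 42.1 and 42.1 TPM in control cells, the other direction.

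Fold changes in these libraries went with transcript length, and the members span a wide range of it. Tested genes under 1000 bases had a median log2 fold change of -0.36, and those of 8000 bases and over had 0.19. Mean fragment length, as the difference between length and effective length gives it, was 266 and 267 bases in the knockdown libraries and 326 and 327 in the control libraries. TEX15 is the longest member at 12103 bases and PIWIL2 has 5638, so both lie where the typical gene was higher in knockdown cells. With the trend removed, TEX15 was 0.27 higher (edgeR adjusted p = 2.89e-05) and PIWIL2 0.30 higher (edgeR adjusted p = 0.00752) on the log2 scale. PIWIL4 and PIWIL1, at 2975 and 3151 bases, were hardly moved by it, to -0.50 (edgeR adjusted p = 0.000409) and -0.53 (edgeR adjusted p = 0.0491). MAEL, at 1628 bases, was nearer to 0 with the trend removed (-0.19, edgeR adjusted p = 0.366), and HENMT1, at 1707 bases, farther from it (0.19, edgeR adjusted p = 0.0968). With effective lengths as an offset instead, TEX15 was at 0.50 (edgeR adjusted p = 6.9e-08) and PIWIL2 at 0.43 (edgeR adjusted p = 0.000855). There PIWIL4 was at -0.46 (edgeR adjusted p = 0.00464) and PIWIL1 at -0.55 (edgeR adjusted p = 0.0475). MAEL was at -0.38 (edgeR adjusted p = 0.049) and HENMT1 at 0.01 (edgeR adjusted p = 0.972), so these shifts depended on the correction. The part of fragment length in these differences was not tested beyond these fits.

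**Figure D3:**
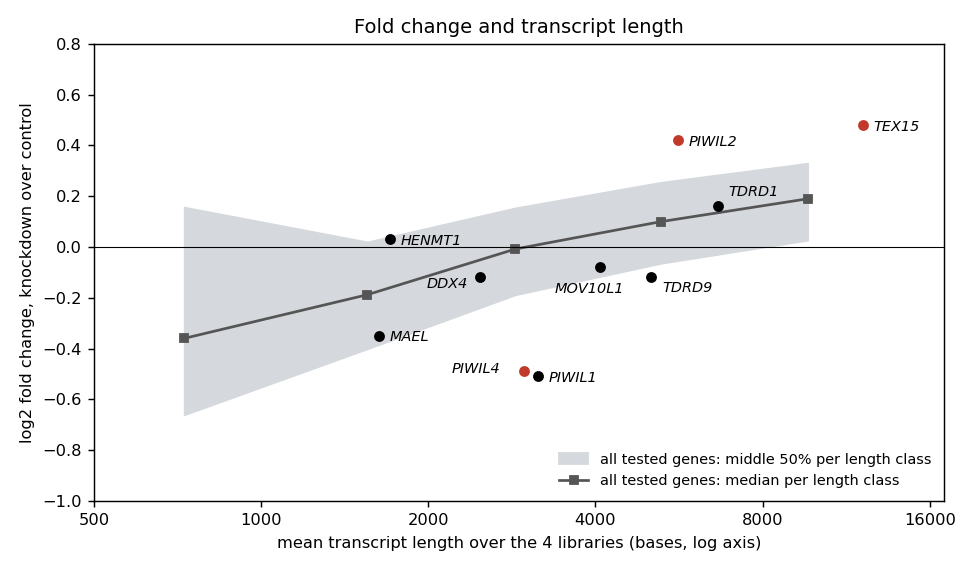
Each labelled point is a member, with its mean transcript length in bases (log axis) and its log2 fold change, ZBTB16 knockdown over control, red where called. The line joins the medians of all tested genes in 5 length classes, from -0.36 to 0.19, and the band holds their middle 50%. PIWIL4, PIWIL1 and TDRD9 lie below the band and PIWIL2 above its upper edge. TEX15, at 12103 bases, lies to the right of the band, which ends at 9641 bases.

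A further 22 genes of the pathway were read in the same fit. Of the 19 tested, 2 rose (MYBL1 and TDRD7), 2 fell (WDR77 and RNF17) and 15 did not pass, with a median log2 fold change of -0.064. These 4 of 19 stand beside 46.4% called among all tested genes, 22.7% higher and 23.8% lower. MYBL1 encodes A-MYB, the transcription factor that drives meiotic piRNA genes and PIWIL1 in mouse spermatocytes. It had 3.48 and 4.21 FPKM in knockdown cells, against 2.69 and 2.81 FPKM in control cells. MYBL1 thus rose 1.41-fold (log2 0.50, SE 0.0964, edgeR adjusted p = 3.1e-06) and stood higher in both knockdown libraries than in both controls.

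RNF17, a Tudor protein that restrains the amplification of piRNAs in mouse spermatocytes, had 6.33 and 5.78 FPKM in knockdown cells and 7.90 and 8.26 FPKM in control cells. It fell to 0.832 times the control level (log2 -0.26, SE 0.0827, edgeR adjusted p = 0.00477). It did not pass with DESeq2 (adjusted p = 0.0994) or with limma on log2(TPM + 1) (-0.18, adjusted p = 0.0702). Without knockdown replicate 2 its log2 difference was -0.19. WDR77, the partner of PRMT5 in the enzyme that methylates PIWI arginines, had 30.3 and 30.2 FPKM in knockdown cells and 37.8 and 40.6 FPKM in control cells (log2 -0.31, SE 0.0478, edgeR adjusted p = 9e-09). Its value is uncertain, because it shares 328 exon bases with ATP5F1 on the opposite strand, which had 2401 and 2150 counts in knockdown cells and 3013 and 2761 in control cells, and the labels do not say whether counting used strand. PRMT5 itself did not pass (log2 0.06, edgeR adjusted p = 0.25), but it was called higher on log2(TPM + 1) and with the length trend removed.

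TDRD7, a germ granule Tudor protein, was called at 1.08-fold (log2 0.11, edgeR adjusted p = 0.0324), with 21.1 and 22.6 FPKM in knockdown cells and 21.5 and 20.4 FPKM in control cells. Those groups overlapped, and TDRD7 was called in only 5 of 15 alternative fits. It did not pass with DESeq2 (adjusted p = 0.188), with effective lengths (edgeR adjusted p = 0.0612) or with the length trend removed (edgeR adjusted p = 0.139). The log2 difference was 0.08 without knockdown replicate 2, 0.13 without control replicate 1 and 0.09 without control replicate 2. Among those that did not pass was SPOCD1, another nuclear partner of MIWI2 in mouse, at 2.73 and 2.56 FPKM in knockdown cells and 2.96 and 3.29 FPKM in control cells (log2 -0.18, edgeR adjusted p = 0.217). The 3 genes under the low-count filter were PIWIL3, DNMT3L and BTBD18. PIWIL3 had 0 and 0 counts in knockdown cells and 1 and 2 in control cells, DNMT3L had 12 and 7 in knockdown cells and 8 and 6 in control cells, and BTBD18 had 10 and 7 in knockdown cells and 8 and 5 in control cells, so no fold is given.

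**Figure D4:**
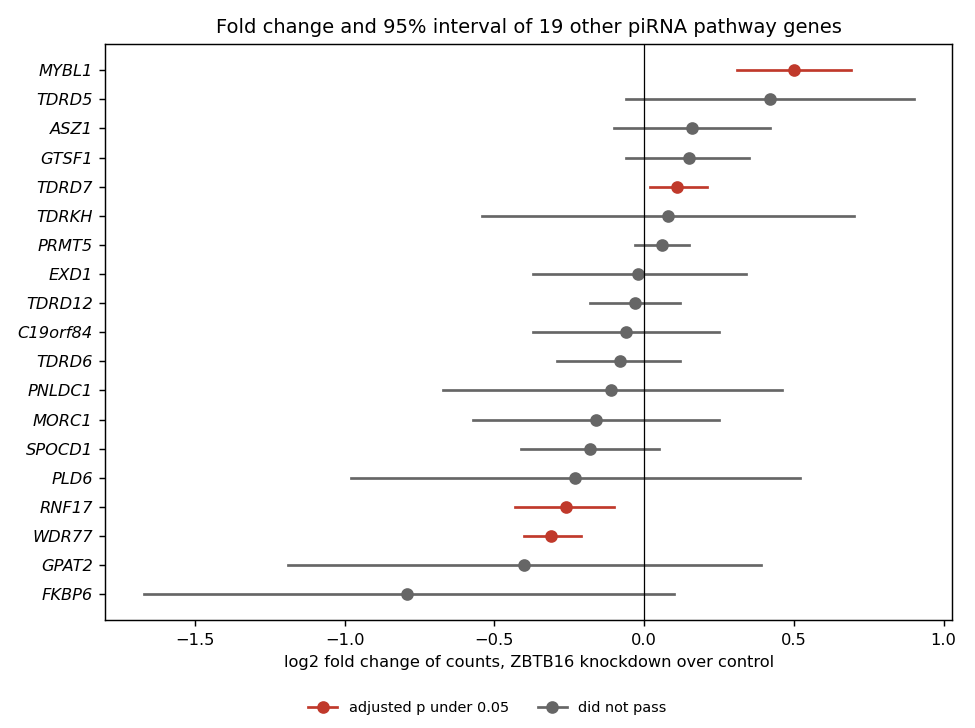
Points are edgeR log2 fold changes of counts, ZBTB16 knockdown over control, of the 19 tested genes of the wider pathway list, with 95% intervals as lines and called genes in red. MYBL1 (0.50) and TDRD7 (0.11) lie right of 0, RNF17 (-0.26) and WDR77 (-0.31) left, and the longest line belongs to FKBP6 (-1.67 to 0.10).

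The gene with the levels closest to those of TEX15 over the 4 libraries was EIF4E3, a cap-binding protein of the eIF4E family, with 4.39 and 4.41 FPKM in knockdown cells and 3.03 and 3.26 FPKM in control cells (Euclidean distance 0.058 in log2(FPKM + 0.1)). CIT (0.115) and MAML2 (0.118) came next. For PIWIL4 the closest was PROCR, the endothelial protein C receptor, with 2.50 and 2.46 FPKM in knockdown cells and 4.13 and 3.49 FPKM in control cells (distance 0.153), ahead of RUNDC3A and GHDC at 0.16 each. No other gene of the pathway was among these 6.

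CACGTG stood in the start region of 4 of the 10 members (PIWIL1, PIWIL4, MAEL and MOV10L1), where 9.28% of 14237 windows held it. Neither member that rose held it, and of its 4 holders PIWIL4 fell while PIWIL1, MAEL and MOV10L1 did not pass. The called genes of the wider list did not follow this split. TDRD7, which rose, held 1 CACGTG, while MYBL1, which rose, and RNF17 and WDR77, which fell, held 0. FKBP6, MORC1, PLD6 and TDRD12 of the wider list, which did not pass, held CACGTG too. These are small counts in a list chosen with results known, and no test was made of them. The stretches are shown with 10 bases on either side, on the strand of the gene, to let the flanks be compared, and the capitals mark the motif.
PIWIL1, -235 from the start: acctcggtgtCACGTGcaaacagttt
PIWIL4, -177 from the start: gcgtcccctgCACGTGcccacggctg
MAEL, -225 from the start: ccgaaccttcCACGTGacagcacctc
MOV10L1, -186 from the start: gcgcacgcccCACGTGccgggcacgc
MOV10L1, -93 from the start: ggcttctgcgCACGTGgggcgcgccc

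Over 15 alternative fits, with other scalings, filters, units, length corrections or a library left out, PIWIL2 and TEX15 were called in 14 each and PIWIL4 in 12. MAEL was called in 4, PIWIL1 in 3, TDRD1 and HENMT1 in 1 each, and DDX4 in 0. TDRD9 and MOV10L1, which were under the filter on low FPKM in 3 of these fits, were called in 0 of the other 12.

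**Figure D5:**
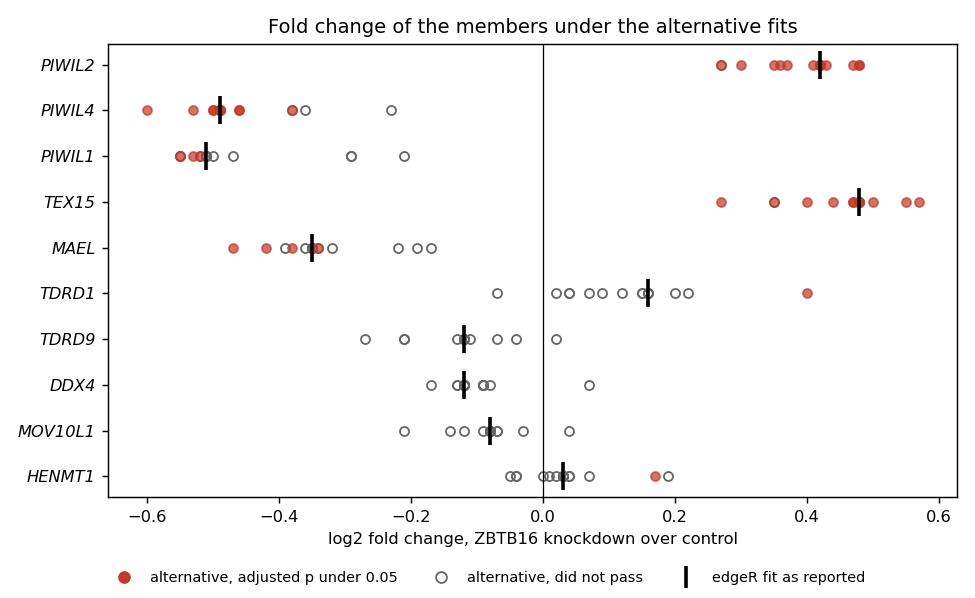
Circles are log2 fold changes of each member, ZBTB16 knockdown over control, in the alternative fits, filled where the adjusted p was under 0.05, and black bars are the reported edgeR values. TEX15 (0.27 to 0.57), PIWIL2 (0.27 to 0.48), PIWIL4 (-0.60 to -0.23), PIWIL1 (-0.55 to -0.21) and MAEL (-0.47 to -0.17) kept their sign in all 15 fits, and the other 5 crossed 0.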

How the data were processed

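RNA from 4 dishes of pig testicular cells, 2 with ZBTB16 knockdown and 2 controls, was sequenced, per the labels, after 2 independent experiments. Per the labels' protocols, the authors filtered reads with SOAPnuke 2.1.0, aligned them to Sscrofa11.1 with HISAT2 2.2.1 and counted them on transcripts with bowtie2 2.3.5 and RSEM 1.3.3. The deposited tables hold an RSEM expected count per gene, which was rounded to whole numbers here and tested with edgeR 4.0.16 in R 4.3.3 (TMM scaling, filterByExpr with a minimum count of 10 and total of 15). The deposited FPKM values, scaled by the authors for transcript length and library size, were used for levels and for limma 3.58.1 with pseudocounts of 1 and 0.1. The deposited TPM values, scaled by the authors to the same total in every library, were used in a limma fit added after the data were seen. DESeq2 1.42.0 was an alternative, and mgcv 1.9.3 fitted the trend on transcript length. Annotation and sequences came from RefSeq's Sscrofa11.1. Markers and pathway lists were matched by gene symbol.

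The members and lists were chosen with earlier results of these data known. All members, ZBTB16, every called or untested gene of the wider list and the 3 genes nearest to the called member with the smallest p in each direction are named. SPOCD1, PRMT5, FKBP6, ASZ1, MORC1, PLD6 and TDRD12 were named after their values were seen. Shared replicate numbers were not used to pair the libraries in the reported edgeR fit. Alternatives were DESeq2, other scalings, filters and thresholds, limma on FPKM and TPM, length corrections, a replicate block and leaving out each library.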

Additional observations from a re-analysis of the deposited data

How the results depend on the processing

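Among all tested genes edgeR called 3574 higher and 3745 lower in knockdown cells. DESeq2 called 2335 and 2463, limma called 2038 and 3887 on log2(FPKM + 1), 2034 and 3869 with a pseudocount of 0.1, 1421 and 3017 with no filter, and 5449 and 1898 on log2(TPM + 1), so the split between higher and lower calls turned with the unit. At 1.5-fold or more the counts were 527 and 832. Leaving out each library gave 2882 to 3038 higher and 3154 to 3227 lower. Of the members, 2 rose and 1 fell. At 1.5-fold, and on log2(FPKM + 1) with no filter, 0 rose and 0 fell, and on log2(TPM + 1) 3 rose (PIWIL2, TEX15 and HENMT1) and 0 fell. 2 fell with no low-count filter, on log2(FPKM + 1), on log2(FPKM + 0.1) and with the length trend removed, and 3 fell with effective lengths and at an unadjusted p under 0.05. Without each library in turn 2 to 3 rose and 0 to 2 fell. Of the other pathway genes, 2 rose and 2 fell. DESeq2 gave 1 and 1, log2(TPM + 1) 5 and 1, a 1.5-fold threshold 0 and 0, and leaving out each library 1 to 2 and 1 to 2. 1 rose with no low-count filter, on log2(FPKM + 1), on log2(FPKM + 0.1) and with effective lengths, and 0 on log2(FPKM + 1) with no filter. With the length trend removed 3 rose (ASZ1, MYBL1 and PRMT5) and 2 fell.

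No called member changed sign, and none of the values that turned sign passed. HENMT1 was -0.04, -0.05 and -0.04 on log2(FPKM + 1), log2(FPKM + 0.1) and log2(FPKM + 1) with no filter, DDX4 was 0.07 on log2(TPM + 1), and leaving out each library gave -0.07 to 0.40 for TDRD1, -0.27 to 0.02 for TDRD9 and -0.21 to 0.04 for MOV10L1. On log2(FPKM + 1) with no filter TEX15 (0.35, adjusted p = 0.0509), PIWIL2 (0.27, 0.102) and PIWIL4 (-0.38, 0.0775) did not pass, nor did PIWIL4 on log2(TPM + 1) (-0.23, 0.0974). The cause was not tested. With the replicate block 3674 genes rose and 3806 fell, and the same 3 members were called. Deviations of libraries that share a number had a Pearson's r of 0 across 15763 genes, which are not independent replicates. Across the 7881 genes in the upper part by level r was 0.067. As the spread within groups was close to counting noise, these values cannot tell whether such libraries came from the same experiment. Depth limits PIWIL1, TDRD9, DDX4 and MOV10L1, with under 100 counts each per library.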
